A study of Mus musculus with 4 samples.

Results

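The genes described here are 9 genes of mature, myelin-forming oligodendrocytes: Mbp, Mobp, Cldn11, Mal, Mag, Mog, Ugt8a, Cnp and Ermn. Their probes were taken by gene name from the probe table of the arrays, which gave 16 probes of the 25697 listed, and 9 genes of 17916. All 16 were among the 14199 probes tested, that is, those that 2 or more arrays detected at a p under 0.01, and 15 of them were detected on all 8 arrays. The exception was the Ermn probe, detected on 7 arrays, with control sample 1 missing among the IP arrays.

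RNA was measured on Illumina BeadArrays in the hypothalamus of C57Bl/6J mice aged 12 weeks, which were kept on a light-dark cycle of 12 h. Salt mice received 325 uL of 2 M NaCl and control mice received phosphate-buffered saline (PBS), the vehicle. Drinking water was then withheld in both groups for the 2 h until they were killed. The IP RNA is what came down with ribosomes whose S6 protein carries phosphate at residues 244 and 247, captured by immunoprecipitation (IP), and the input RNA is unselected RNA from the same tissue. There were 2 salt and 2 control samples, each with 1 IP array and 1 input array, and both kinds of RNA were amplified before labelling. The labels leave unsaid how many animals make up each sample, so the p-values measure only the spread between these samples, and their small number limits the precision of every value.

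Oligodendrocytes wrap axons in myelin, a stack of membrane that is rich in galactolipids and cholesterol and is held together by a small set of abundant proteins. The genes of these proteins are switched on together late in the maturation of the cell, and several of their mRNAs, that of Mbp above all, are carried along the processes and translated near the growing sheath. S6, which belongs to the small ribosomal subunit, is phosphorylated downstream of mTORC1 and other kinases, and phospho-S6 capture is used mainly to profile active neurons. A transcript that is bound to such ribosomes more than the average transcript has an IP/input ratio above 0 on the log2 scale used here, and one bound less has a ratio below 0.

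The arrays detected 13058 to 13808 probes in IP RNA and 12259 to 12705 in input RNA. The log2 ratios of all tested probes correlated at r = 0.73 between the salt samples and at r = 0.87 between the control samples, as a description across probes, which are not independent replicates. The stimulus was visible in the IP: the immediate early gene Fosb was higher in salt by 4.28 ± 0.20 (log2 difference of IP levels, SE; limma, adjusted p = 4.61e-05) and Fos by 3.15 ± 0.40 (adjusted p = 0.0225), with Fos detected on 2 salt IP arrays and on 1 of 2 control IP arrays. The vasopressin gene Avp was higher in salt IP by 3.41 ± 0.36 (adjusted p = 0.0127). In the IP/input ratio, salt against control, none of these genes passed. The differences there were 1.32 ± 0.27 for Fosb, 1.16 ± 0.24 for Fos and 3.26 ± 0.32 for Avp (limma, adjusted p = 0.118 for Avp). In the input, Fosb was also higher in salt, by 2.97 ± 0.20 (limma, adjusted p = 0.00129), and Fos by 1.99 ± 0.40 without passing. The tissue label was checked against Avp, Oxt, Pmch and Hcrt, each detected on 8 arrays, and Pomc, detected on 2. As a check of the oligodendrocyte label, the oligodendrocyte marker Opalin was detected on 8 arrays, with mean log2 ratios of -0.43 in salt and -0.36 in control samples that did not pass.

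Across the 9 genes, each represented by its probe with the highest mean level, 1 gene was recovered more and a few were recovered less with phosphorylated ribosomes. In the salt samples Ugt8a was higher in IP than in input and Cldn11, Mog and Ermn were lower, while 5 genes did not pass. In the control samples Ugt8a was again higher, Mobp, Cldn11, Mog and Ermn were lower, and 4 genes did not pass. The test was limma's on the log2 ratio of each sample, with Benjamini-Hochberg adjustment over the 14199 probes and a threshold of 0.05. Of the 16 probes, 1 was higher and 6 were lower in salt, where 18.8% of all tested probes were called higher and 18.1% lower. In control samples 1 probe was higher and 7 were lower, where 19.9% of all tested probes were called higher and 20.1% lower. The median ratio of the 9 genes was -0.12 in salt and -0.24 in control samples, beside -0.04 and -0.05 over the 10182 genes tested. These medians moved with the processing: median scaling gave -0.45 and -0.54, and the mean of each gene's probes gave -0.31 and -0.55. In bulk RNA, less RNA from a cell type and less RNA of a gene per cell cannot be told apart, in the IP and in the input alike.

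**Figure D1:**
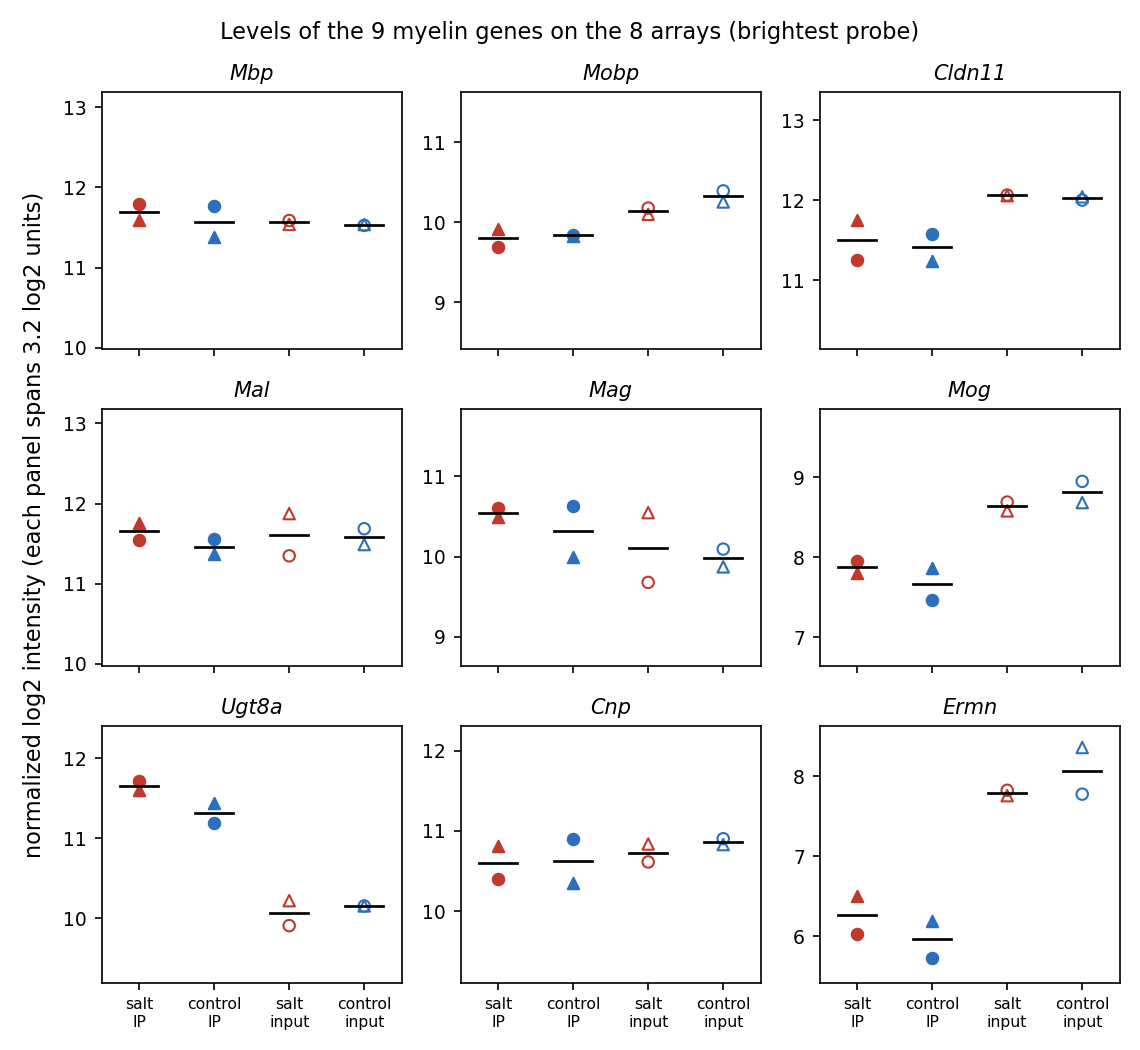
Normalized log2 intensity of the brightest probe of each of the 9 myelin genes in salt IP, control IP, salt input and control input (circles are sample 1, triangles sample 2, bars the mean of 2; filled IP, open input). Ugt8a lies between 11.19 and 11.71 on the IP arrays and between 9.91 and 10.22 on the input arrays, and Ermn lies between 5.73 and 6.51 on the IP arrays and between 7.76 and 8.36 on the input arrays.

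Ermn encodes ermin, an actin-binding cytoskeletal protein that appears late in oligodendrocyte maturation, and had the lowest ratio among the brightest probes in both groups. Its deposited intensities were 152.9 and 182.9 in salt IP samples 1 and 2, and 303.3 and 283.4 in the salt inputs. They were 144.5 and 154.1 in control IP samples 1 and 2, and 316.2 and 384.3 in the control inputs. All 4 IP values lay below all 4 input values, and the IP values were not far above the intensity of undetected probes, whose median per array was 99.3 to 112.2. After background correction and normalization the log2 ratios were -1.79 and -1.25 in the salt samples, against -2.04 and -2.16 in the control samples. Ermn was thus 2.87-fold lower in IP than in input in salt (log2 ratio -1.52 ± 0.18, SE, n = 2; limma, adjusted p = 0.00203). In control samples it was 4.29-fold lower (-2.10 ± 0.18, n = 2; limma, adjusted p = 0.000821), with only 1 of the 2 control IP arrays detecting it. Its size depended on the background correction: the deposited ratios, which have none, gave -0.81 in salt and -1.22 in control samples.

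Ugt8a encodes the galactosyltransferase that makes galactosylceramide, a main lipid of myelin, and was the only one of the 9 genes called higher in IP than in input. Its log2 IP levels were 11.71 and 11.60 in salt samples 1 and 2, over log2 input levels of 9.91 and 10.22. In control samples 1 and 2 its IP levels were 11.19 and 11.44, over input levels of 10.16 and 10.16. Every IP array was above every input array. The log2 ratios were 1.80 and 1.38 in the salt samples, against 1.03 and 1.28 in the control samples, all 4 above 0. Ugt8a was 3.01-fold higher in IP than in input in salt (1.59 ± 0.17, SE, n = 2; limma, adjusted p = 0.00187) and 2.23-fold higher in control samples (1.16 ± 0.17, n = 2; limma, adjusted p = 0.00275). Its ranks from the highest were 149 in salt and 694 in control samples. Without control sample 2 the control value was that of control sample 1 alone, 1.03, and no call is read from a single sample.

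Cnp encodes the cyclic nucleotide phosphodiesterase of the cytoplasm-filled channels of myelin, and did not pass. The log2 ratios of its brightest probe were -0.21 and -0.03 in the salt samples, against 0.00 and -0.48 in the control samples. The 95% intervals ran from -0.53 to 0.29 in salt and from -0.65 to 0.17 in control samples. Its other probe was below 0 in all 4 samples, between -0.50 and -0.18, without passing in either group.

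**Figure D2:**
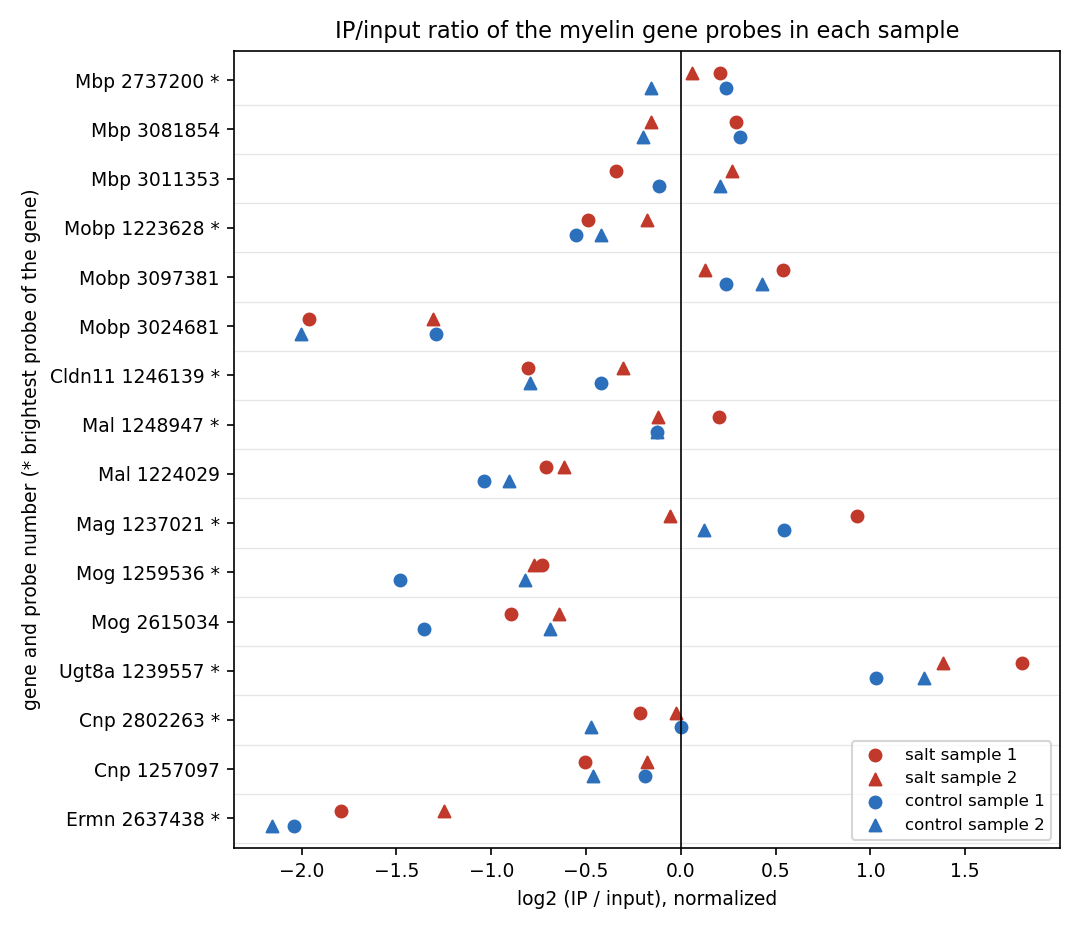
Log2 IP/input ratio of the 16 myelin gene probes in salt samples (red) and control samples (blue), with circles for sample 1 and triangles for sample 2; asterisks mark the brightest probe of each gene. Ugt8a lies between 1.03 and 1.80, the Mbp probes lie on both sides of 0 and Ermn lies between -2.16 and -1.25.

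Mog and Mag encode surface proteins of opposite faces of the sheath. Mog, the immunoglobulin-domain glycoprotein of the outermost lamella, has 2 probes that gave nearly the same ratios. The brighter, ILMN_1259536, had log2 ratios of -0.73 and -0.77 in the salt samples, against -1.48 and -0.82 in the control samples. The other, ILMN_2615034, had -0.90 and -0.64 in the salt samples, against -1.36 and -0.69 in the control samples. All 8 ratios were below 0, and the probes differed by 0.12 to 0.16 within a sample. By the brighter probe, Mog was 1.69-fold lower in IP than in input in salt (-0.75 ± 0.19, SE, n = 2; limma, adjusted p = 0.0194) and 2.22-fold lower in control samples (-1.15 ± 0.19, n = 2; limma, adjusted p = 0.00381). Without control sample 1 the control ratio was that of control sample 2 alone, -0.82, and -0.69 by the other probe. Without salt sample 1 the other probe had -0.64 in salt. No call is read from a single sample.

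Mag, the sialic acid-binding glycoprotein on the inner face next to the axon, had log2 ratios of 0.93 and -0.06 in the salt samples, against 0.54 and 0.12 in the control samples. Its salt samples disagreed and it passed in neither group. The intervals ran from -0.13 to 1.00 in salt and from -0.23 to 0.90 in control samples. Without salt sample 2 the salt value was that of the other salt sample alone, 0.93, and no call is read from a single sample.

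Mbp, Mobp, Cldn11 and Mal encode proteins of compact myelin and its junctions. Mbp, the basic protein that draws the cytoplasmic faces of the membrane together, stayed near 0 on all 3 probes. The brightest, ILMN_2737200, had log2 ratios of 0.20 and 0.06 in the salt samples, against 0.24 and -0.16 in the control samples. Over the 3 probes the 12 ratios ran from -0.34 to 0.31. The interval of the brightest probe was -0.26 to 0.52 in salt and -0.35 to 0.43 in control samples, so that a ratio as large as that of Ugt8a or Ermn lay outside it.

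Cldn11 encodes the claudin of the tight junctions between myelin lamellae. Its log2 ratios were -0.81 and -0.31 in the salt samples, against -0.42 and -0.80 in the control samples. All 4 were below 0, and the samples of each group lay apart, with salt sample 1 and control sample 2 the lowest. The gene was lower in IP than in input in salt (-0.56 ± 0.19, SE, n = 2; limma, adjusted p = 0.04998) and in control samples (-0.61 ± 0.19, n = 2; limma, adjusted p = 0.0353). Both calls lay near the threshold. Through the shared estimate of the spread, the salt call also depended on both control samples. The salt ratio was -0.31 without salt sample 1. The control ratio was -0.80 without control sample 1 and -0.42 without control sample 2. Each of these values rests on a single sample, and no call is read from it.

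Mobp, a small basic protein that also lies on the cytoplasmic side of compact myelin, has 3 probes, and they did not move together. The brightest, ILMN_1223628, whose target is transcript variant 1, had log2 ratios of -0.49 and -0.18 in the salt samples, against -0.55 and -0.42 in the control samples. ILMN_3097381 (variant 3) had 0.54 and 0.13 in the salt samples, against 0.24 and 0.43 in the control samples. ILMN_3024681 (variant 3 as well) had -1.96 and -1.31 in the salt samples, against -1.29 and -2.0 in the control samples. The first and the last were below 0 in all 4 samples and the middle one above 0 in all 4, so that the spread between probes within a sample was 1.44 to 2.50, wider than the differences between the groups on these probes. ILMN_3024681 was 3.10-fold lower in IP in salt (-1.63 ± 0.23, SE, n = 2; limma, adjusted p = 0.00280) and 3.13-fold lower in control samples (-1.65 ± 0.23, n = 2; limma, adjusted p = 0.00212). This dim probe, too, depended on the background correction, and the deposited ratios gave -1.02 in salt and -1.04 in control samples. The brightest probe passed only in control samples, near the threshold (-0.49 ± 0.16, limma, adjusted p = 0.0458, against -0.34 ± 0.16, adjusted p = 0.139 in salt). Its control ratio was -0.42 without control sample 1 and -0.55 without control sample 2, and no call is read from a single sample. A call in 1 group and not in the other is no difference between the groups, and the direct comparison of this probe gave 0.15 ± 0.23 (log2, salt minus control, adjusted p = 1).

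Mal encodes a proteolipid of the lipid-ordered domains of myelin, and its 2 probes differed as well. The brighter, ILMN_1248947, had log2 ratios of 0.20 and -0.12 in the salt samples, against -0.13 and -0.12 in the control samples, near 0 throughout. ILMN_1224029 had -0.71 and -0.61 in the salt samples, against -1.04 and -0.91 in the control samples, all 4 below 0. It was lower in IP than in input in salt (-0.66 ± 0.15, SE, n = 2; limma, adjusted p = 0.0141) and in control samples (-0.97 ± 0.15, n = 2; limma, adjusted p = 0.00323). The control ratio of this probe was -0.91 without control sample 1 and -1.04 without control sample 2, and no call is read from a single sample. No probe of Mbp, Mag or Cnp passed in either group.

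Counted over probes, 6 were lower in both groups, namely ILMN_3024681 of Mobp, the Cldn11 probe, ILMN_1224029 of Mal, both Mog probes and the Ermn probe, where 14.7% of all tested probes were lower in both. Only the Ugt8a probe was higher in both, where 15.5% of all tested probes were. The ratio was below 0 in all 4 samples for 8 probes of 6 genes, against 34.2% of all tested probes, and above 0 in all 4 for 2 probes, against 32%. The ratios of the 9 genes did not share 1 direction: the brightest probes ran from -1.52 to 1.59 in salt and from -2.10 to 1.16 in control samples. Scaling by the median of each array in place of quantile normalization moved the median ratio of all tested probes to -0.15 in salt and -0.16 in control samples. It also moved the share of higher among all called probes to 36.8% in salt and 37.7% in control samples, beside 50.9% and 49.7%. Normalizing IP and input arrays apart moved these shares to 61.3% and 59.5%. Relative to the median of all probes, the median of the 9 genes was -0.31 in salt and -0.39 in control samples under median scaling, -0.30 and -0.40 with normalization apart and -0.25 and -0.33 with the deposited ratios, beside -0.10 and -0.20 under the normalization used. By the same measure, 2 of the 9 genes (Mag and Ugt8a) were above it and 7 below it in both groups under median scaling, as under normalization apart and with the deposited ratios, beside 4 above in salt and 3 in control samples under the normalization used. The brightest probes of Mbp in both groups and of Mal in salt were those that changed side, and neither of these probes had passed under the normalization used.

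The effect of salt on the 9 genes was tested in the ratio, in the IP and in the input. No probe of the 16 passed in any of these comparisons. In the ratio 0% of all tested probes were called, in the IP level 0.134%, and in the input level 0.0141%. At an unadjusted p under 0.05 there was also no member probe in the ratio, the IP or the input, where 2.73%, 5.58% and 2.41% of all tested probes reached it. The adjusted p of limma was 1 for all 16 probes in the ratio and in the input, and at least 0.937 in the IP. With 2 samples per group these comparisons could miss changes of the size the intervals allow, and they do not show that the levels were the same.

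In the IP/input ratio the point estimates of all 9 brightest probes were above 0, where 51.1% of all tested probes were, and 14 of the 16 probes were. Their median was 0.15, beside 0.01 over all genes. These signs depended on single samples: 8 were above 0 without salt sample 1, 7 without salt sample 2 and 5 without control sample 2, with medians of 0.17 to 0.31 when 1 sample was left out. Ermn had a difference of 0.58 ± 0.26 (log2, salt minus control, SE; 95% interval -0.01 to 1.17, unadjusted p = 0.0540, adjusted p = 1). The Ermn value rests in part on a control IP array that did not detect it. Ugt8a had 0.44 ± 0.25 (interval -0.14 to 1.01) and Mog 0.40 ± 0.27 (interval -0.23 to 1.02). Both salt samples were above both control samples for 4 genes, Ermn, Ugt8a, Mog and Mal, and 5 probes, where 13.7% of all tested probes had this order. The members' median ratio per sample was -0.21 and -0.12 in the salt samples, against -0.13 and -0.42 in the control samples, so the groups overlapped. Ermn lay above Ugt8a under the background correction used and below it without one (0.35, against 0.42 for Ugt8a), with normexp without negative controls (0.39, against 0.42) and with the deposited ratios (0.41, against 0.46). The smallest difference among the brightest probes was that of Cldn11, 0.05 ± 0.27, with an interval of -0.56 to 0.67. The 9 estimates share their arrays and are not independent of each other.

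**Figure D3:**
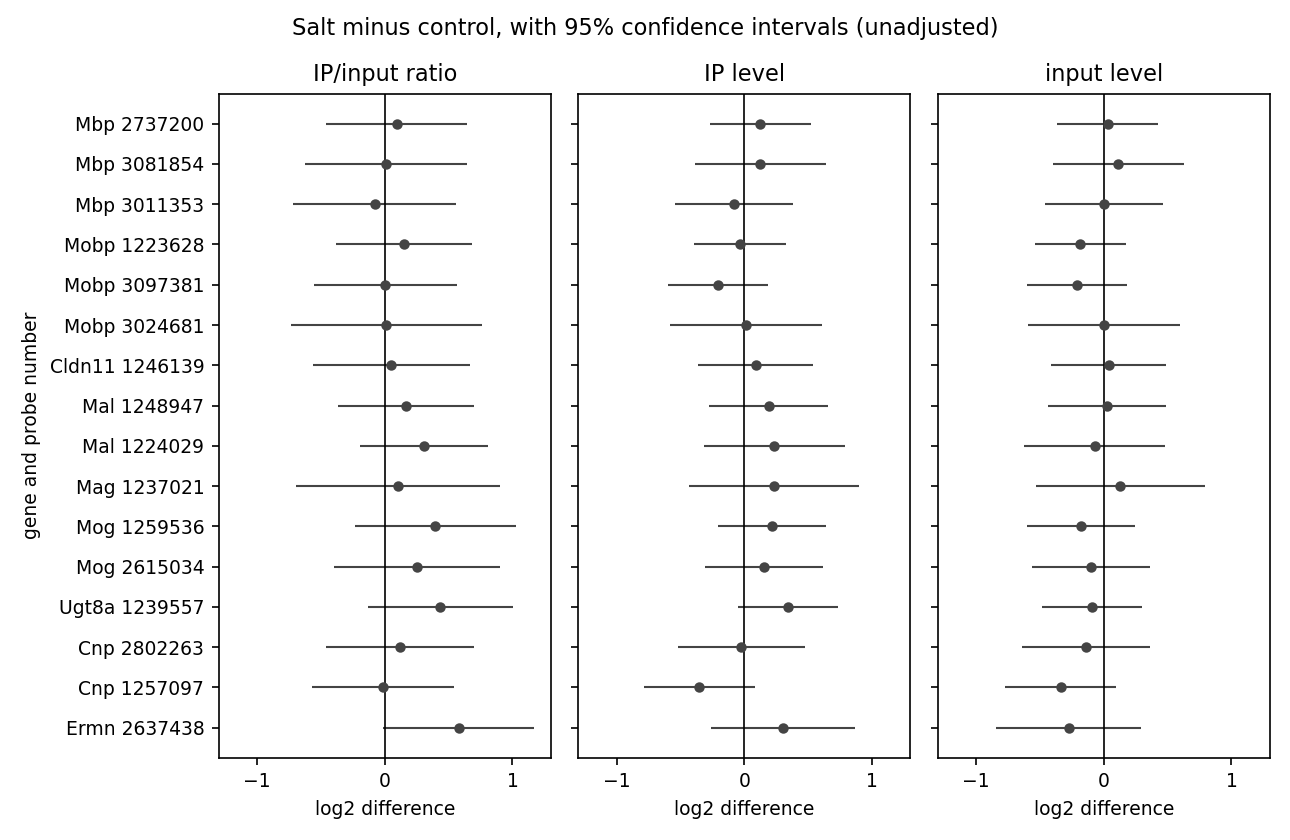
Salt minus control on the log2 scale for the 16 myelin gene probes in the IP/input ratio, the IP level and the input level; points are limma estimates (n = 2 per group) and bars unadjusted 95% intervals. Every interval includes 0, and the estimates in the ratio include 0.58 for Ermn, which falls to 0.35 without background correction, and 0.44 for Ugt8a.

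In the IP level, salt against control, the brightest probes ran from -0.03 (Mobp) to 0.35 (Ugt8a), with 7 of 9 above 0, where 49.4% of all tested probes were, and a median of 0.19, beside 0.00 over all genes. Ugt8a was the only gene whose salt arrays, at 11.71 and 11.60, both lay above its control arrays, at 11.19 and 11.44. Its difference was 0.35 ± 0.17 (interval -0.05 to 0.74; limma, unadjusted p = 0.0769, adjusted p = 0.937). The groups did not overlap for 3 of the 16 probes, against 30.8% of all tested probes. The other two lay below their control arrays, ILMN_3097381 of Mobp (-0.21 ± 0.17) and ILMN_1257097 of Cnp (-0.35 ± 0.19), and neither passed. By the brightest probes, control sample 2 had the lowest IP level of Mbp, Cldn11, Mal, Mag and Cnp, and without it the median of the 9 genes was -0.04.

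In the input, which is total RNA, the brightest probes ran from -0.28 (Ermn) to 0.13 (Mag), with 4 above and 5 below 0, where 48.9% of all tested probes were above, and a median of -0.09, beside 0.00 over all genes. The groups did not overlap for 5 of the 16 probes, where 25% of all tested probes had this separation. Input levels of Mbp were 11.59 and 11.54 in the salt samples, against 11.53 and 11.54 in the control samples, a difference of 0.03 with an interval of -0.37 to 0.43. Those of Cldn11 were 12.06 and 12.06 in the salt samples, against 12.00 and 12.04 in the control samples. The salt arrays were just above the control arrays for both genes, by less than the standard error of the fit (0.18 and 0.20). That error pools the spread of IP and input arrays, and the input arrays alone varied less. Their SD was 0.034 in salt and 0.007 in control samples for Mbp, and 0.005 and 0.029 for Cldn11. Mobp lay the other way, with 10.18 and 10.10 in the salt samples, against 10.39 and 10.25 in the control samples, a difference of -0.18 ± 0.16.

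Genes around the 9 were read from lists chosen with earlier results of these data known, and none of their members passed salt against control in the ratio, the IP or the input. The counts against 0 stand beside 18.8% of all tested probes called higher and 18.1% lower in salt, and 19.9% and 20.1% in control samples. Those shares are of probes, while the lists count genes by their brightest probe. By the mean of each gene's probes, 1940 of 10182 genes were higher and 2059 lower in salt, and 2066 and 2334 in control samples. Nothing particular to a list is read from the counts. Of 32 other genes of mature oligodendrocytes and myelin, 5 were higher and 13 lower in IP than in input in salt, and 5 were higher and 13 lower in control samples. Their median ratio was -0.15 in salt and -0.33 in control samples. The largest decreases were those of Ppp1r14a (-1.68 ± 0.29 in salt and -1.35 ± 0.29 in control samples), the enzyme gene Plaat3 (-1.62 ± 0.21 and -1.03 ± 0.21) and, in control samples, Omg, which encodes oligodendrocyte-myelin glycoprotein (-1.20 ± 0.20), and Cmtm5 (-1.17 ± 0.16). The largest increases were those of the metalloproteinase gene Adamts4 (1.35 ± 0.16 in salt) and of the glycosyltransferase gene Galnt6. Galnt6 was at least 2.43-fold higher in IP in salt and at least 3.04-fold higher in control samples. It was not detected in any input array, so only IP arrays brought it past the detection filter, and the filter favoured its calls as higher. Aspa, which encodes aspartoacylase, was not detected on the salt IP arrays and was at least 2.15-fold lower there, and it had a ratio of -0.996 ± 0.17 in control samples. For these bounds the undetected side was set, on each array, to the higher of the probe's signal and the lowest detected signal.

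Of 11 genes of oligodendrocyte precursors and newly formed oligodendrocytes, 4 were higher and none lower in salt, and 7 were higher and none lower in control samples. Their median ratio was 0.37 in salt and 0.57 in control samples. Gpr17, a receptor of cells just leaving the precursor stage, had ratios of 1.71 ± 0.18 in salt and 1.78 ± 0.18 in control samples. Itpr2, an inositol trisphosphate receptor gene, had 0.97 ± 0.16 in salt and 1.02 ± 0.16 in control samples. The sialidase gene Neu4 had 0.49 ± 0.16 in salt and 0.66 ± 0.16 in control samples, and Pdgfra, the precursors' growth factor receptor, passed in control samples (0.76 ± 0.17) and had 0.24 ± 0.17 in salt. The difference between the precursor list and the 9 myelin genes was not tested.

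Of 10 lineage transcription factor genes, 3 were higher and 1 lower in salt, and 2 were higher and 2 lower in control samples. Zfp488, a zinc finger gene of oligodendrocyte differentiation, had a ratio of 0.84 ± 0.18 in salt and 0.81 ± 0.18 in control samples. Olig1, the basic helix-loop-helix factor, had -0.59 ± 0.16 in salt and -0.48 ± 0.16 in control samples. Of 19 genes of lipid and sterol synthesis, which supply the membrane that Ugt8a's product enters, 5 were higher and 1 lower in salt and 4 were higher and none lower in control samples. Lss, the lanosterol synthase gene, had 0.92 ± 0.15 in salt and 1.06 ± 0.15 in control samples, and Fdps, which encodes farnesyl diphosphate synthase, had -0.82 ± 0.18 in salt. Of 13 genes of the axonal node and paranode, where myelin loops meet the axon, 5 were higher in salt and 4 in control samples, and none was lower. Ank3, the ankyrin gene of the node, had 1.08 ± 0.20 in salt and 1.23 ± 0.20 in control samples, and the potassium channel gene Kcna2 had 1.00 ± 0.18 in salt and 0.67 ± 0.18 in control samples.

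**Figure D4:**
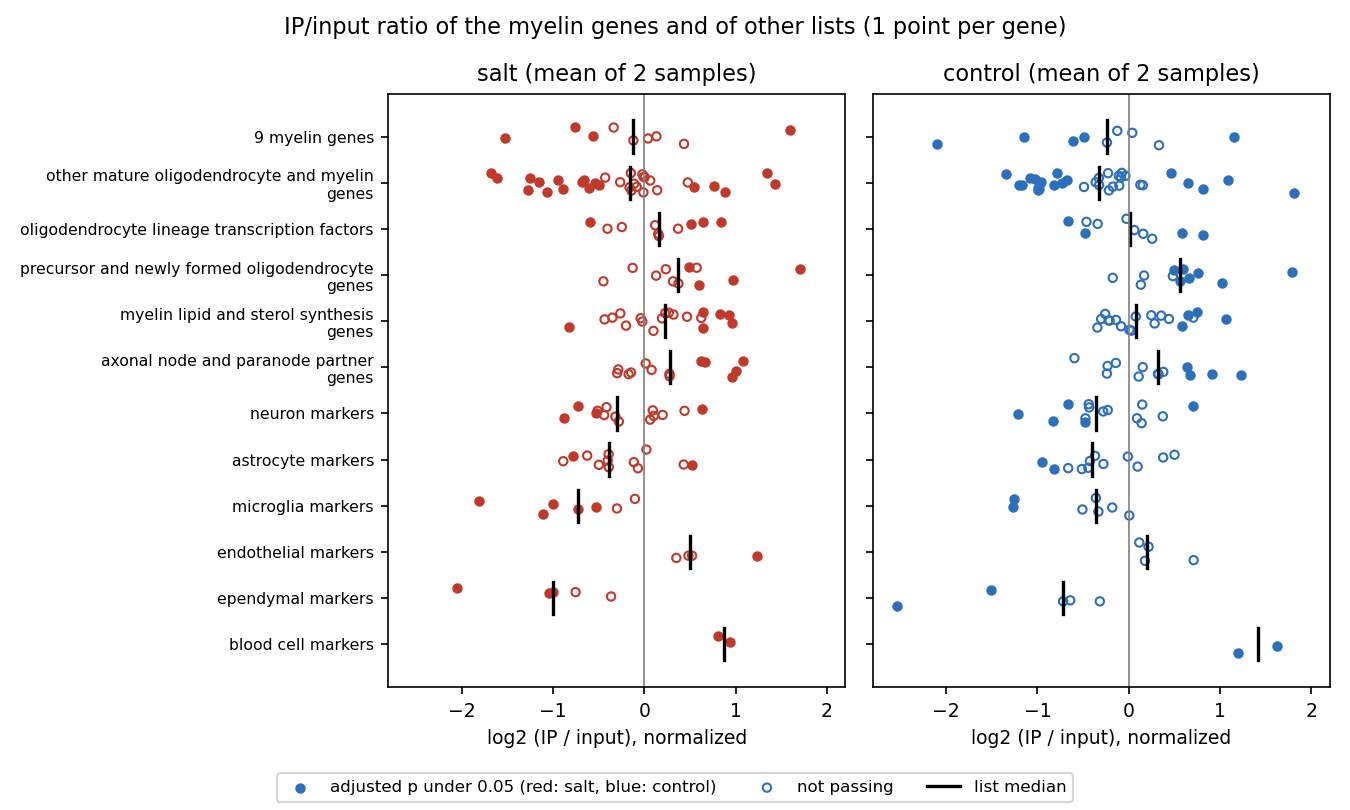
Log2 IP/input ratio of the 9 myelin genes and of 11 other gene lists in salt (left) and control (right), 1 point per gene at the mean of 2 samples; filled points passed limma's test against 0 at an adjusted p of 0.05 and bars are list medians. The myelin genes spread from -1.52 to 1.59 in salt and from -2.10 to 1.16 in control samples, with medians of -0.12 and -0.24, and the precursor genes have medians of 0.37 and 0.57.

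Some markers of other cell types passed between IP and input as well, and their part in the values of the myelin genes was not tested. Only markers that passed the detection filter are counted. Of all tested probes, 18.8% were called higher and 18.1% lower in salt, and 19.9% and 20.1% in control samples. These shares are of probes, while the markers are counted as genes by their brightest probe. The lists are small, and a departure of a list from these shares was not tested. Of 14 neuron markers 1 was higher and 3 lower in salt, and 1 was higher and 4 lower in control samples, with summed levels of 31388 to 32959 in salt IP, 32412 to 33903 in control IP, 31738 to 34502 in salt input and 33781 to 34994 in control input. Of 12 astrocyte markers 1 was higher and 1 lower in salt and 2 were lower in control samples, with summed levels of 6740 to 9067 in salt IP, 5513 to 10142 in control IP, 9326 to 10086 in salt input and 8602 to 9746 in control input. Of the 7 microglia markers tested, from 13 listed, 5 were lower in salt and 2 in control samples. Their summed levels were 1126 to 1247 in salt IP, 1304 to 1365 in control IP, 1769 to 2018 in salt input and 1786 to 1827 in control input. Of 5 ependymal markers 3 were lower in salt and 2 in control samples, and both blood cell markers, Hba-a1 and Hbb-b1, were higher in IP in both groups (0.94 ± 0.24 and 0.81 ± 0.19 in salt, 1.63 ± 0.24 and 1.20 ± 0.19 in control samples). Of the 4 endothelial markers tested, from 11 listed, 1, Flt1, was higher in salt. It was not detected on an input array, so only IP arrays brought it past the detection filter, and the filter favoured this call. The summed levels of the 9 myelin genes, for comparison, were 16389 to 17629 in salt IP, 14044 to 16536 in control IP, 15109 to 17206 in salt input and 15917 to 16547 in control input.

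Other genes were compared with the mean profile of the 9, which need not resemble any single member, with the log2 level of each gene centred on its own mean. Among 8950 genes that varied at least as much as that profile, those with the smallest root mean square difference from it across the 8 arrays were chosen. They were Ndfip1 (0.055), Glo1 (0.059), Vamp2 (0.063), Zfx (0.063) and Gje1, as the file names it (0.065). The members' profile itself was -0.11 and 0.03 in salt IP and -0.14 and -0.25 in control IP, beside -0.01 and 0.17 in salt input and 0.17 and 0.14 in control input. Its range was narrower than that of Ermn or Ugt8a alone.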

How the data were processed

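For each array the authors deposited a linear intensity and a detection p-value of every probe, per the file headers. The submitters' processing notes name GenomeStudio, without a version. Undetected probes had median intensities of 99.3 to 112.2 per array, so that background was still included. A ratio of IP to input, also deposited by the authors for each sample, matched the intensities divided by each other within a relative gap of 1.6e-09. The genome build is not given in the sources used here, and no coordinates are printed.

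Intensities were background-corrected with limma's neqc steps, in which the detection p-values stand in for negative control probes (offset 16), quantile-normalized over the 8 arrays and put on the log2 scale (limma 3.58.1, R 4.3.3; figures with matplotlib 3.10.9). Tested were the probes that 2 or more arrays detected at a p under 0.01, 14199 of 25697 probes and 10182 genes. Of the 25697 names, 20736 were current mouse symbols in the RefSeq table of GRCm38.p6, 3841 were updated from an older symbol and 1120 were kept.

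The log2 ratios of the 4 samples were fitted with limma (2 residual degrees of freedom before moderation) and gave each group against 0 and salt against control. The log2 levels of the 8 arrays were fitted with 4 group means (4 residual degrees of freedom). The text calls an effect passed at a Benjamini-Hochberg adjusted p under 0.05 over the 14199 probes, two-sided. Errors are standard errors of these fits with n = 2 samples per group. Both tests against 0 share the spread of all 4 samples. A gene's brightest probe, by mean level, stands for it in counts of genes. Only the salt against control fits of the ratio and of the IP level were tried on simulated data. The tests against 0 and the input comparison were not.

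The 9 genes and the other lists were chosen with earlier results of these data known. All probes of the 9 genes are reported. Of each other list the counts, the median and at most 4 of the largest passing genes per comparison were named by rule, Fos, Fosb and Avp checked the stimulus, and 5 genes were named by likeness of profile. The markers Opalin and Aspa, and those that passed among other cell types, are named as checks of labels; the other markers fixed for that check are not reported here. Alternatives were other background corrections and scalings, other filters, the mean of a gene's probes, another variance estimate, the replicate number as a block, each sample left out and the deposited ratios.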

Additional observations from a re-analysis of the deposited data

How the results depend on the processing

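No probe of the 9 genes passed salt against control in the ratio, the IP or the input under any alternative run, and the number of member genes and probes that passed there was 0 throughout, with each sample left out as well. Against 0, the control count of 5 genes fell to 3 without the filter on dim probes. With 1 sample left out, the control counts ranged from 2 to 5 genes and from 3 to 8 probes (2 genes and 3 probes without control sample 1, 2 genes and 4 probes without control sample 2), and the salt counts from 3 to 5 genes and from 5 to 8 probes. A group left with 1 sample is assumed to vary like the other. No value that passed changed sign. With all samples kept, Ermn, Ugt8a and the brighter Mog probe passed in both groups under every alternative that tested them.

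Calls near the threshold moved. Without the filter, more probes share the adjustment, and Cldn11 no longer passed in salt (adjusted p = 0.0872) or control (0.0653), nor Mobp in control (0.0556). Median scaling added Mal (-0.52) and Cnp (-0.54) in control and, in salt, Mobp (-0.62) and ILMN_1257097 of Cnp (-0.52). The mean of a gene's probes added Mal in control (-0.55) and Mobp in salt (-0.54), and the deposited ratios added Mobp in salt (-0.36). With IP and input arrays normalized apart, ILMN_2615034 of Mog was lost in salt (adjusted p = 0.0523). The cause was not tested beyond these settings.

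Samples of the same replicate number did not deviate together in the ratio (r = 0.01), and their IP levels correlated at r = 0.14; the labels do not say that a number marks a shared animal or day. With the replicate number as a block, 3 genes and 6 probes passed in salt and 4 genes and 7 probes in control. Of the 14199 tested probes, 4958 passed in salt and 5420 in control under this block. Cldn11 was lost in salt (limma, adjusted p = 0.0675) and Mobp in control (0.0541). In the input the deviations correlated at r = -0.23. The crossed numbers as a block, chosen after seeing the data, called 2 of all probes and 0 of the 9 genes.

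Over all tested probes and with all samples kept, the 19 called in the IP level ranged from 2 without the filter to 21. The 21 were called with median scaling and with IP and input arrays normalized apart. There were 7 among probes detected on all arrays, 10 with the IP arrays fitted alone and 14 with the replicate block. The 2 called in the input level ranged from 0 to 7. In the ratio, where 0 were called, at most 1 was called under another setting with all samples kept. With 2 samples a group, only changes well beyond the spread could pass, and the dim Ermn IP signals make its fold depend on the background correction.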
